A study of Mus musculus with 6 samples.

Results

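The genes described here make cholesterol and fatty acids, control that synthesis, or move sterol out of the cell. They were chosen by name from a list of 36 mouse genes in 5 branches, and 35 of them had a row of their own among the 23793 rows of the authors' deposited table. The remaining gene, Tm7sf2, one of the sterol reductases, stood only in a row joined with its neighbour Vps51 and was left out. That row of the authors' deposited table stood at 17.7 FPKM in induced and 17.3 FPKM in non-induced cells (q = 0.855) and was not assigned to either gene. The authors had tested 34 of the 35. The untested gene was Abca1.

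Cholesterol is built in the cytosol and endoplasmic reticulum from acetyl-CoA. The mevalonate pathway first makes isoprenoid units, and a second stretch turns squalene into cholesterol. Fatty acids start from the same acetyl-CoA, and desaturases and elongases then shape the saturated chain. Both routes are under the SREBP transcription factors, which leave the endoplasmic reticulum with their escort SCAP when sterol is low and are held back by the INSIG proteins when it is high. When sterol is in excess, liver X receptors raise the exporters ABCA1 and ABCG1.

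The cells were i660BM, a line of mouse pro-B cells (C57BL/6) grown with interleukin 7 in which doxycycline switches on PU.1, and their messenger RNA had been sequenced. PU.1, encoded by Spi1, is an ETS family transcription factor of myeloid and B cells. There were 3 libraries of cells given doxycycline at 70 ng/ml for 48 h (induced) and 3 libraries of cells without it (non-induced). All came from the same cell line, and all libraries carried the inducible PU.1. No group received doxycycline without inducible PU.1, so the drug and the factor cannot be told apart.

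The table held 1 value per gene and group, in FPKM (fragments per kilobase of transcript, scaled to the fragments of the library), so the values of single libraries and their spread were not analysed here. Steps between the lowest values corresponded to roughly 122000000 fragments in induced and 119000000 in non-induced cells, about 40600000 and 39700000 per library. At that depth each tested gene of the set rested on roughly 1461 fragments or more in induced and 2200 or more in non-induced cells. The level of Spi1 per the authors' deposited table was 246 FPKM in induced and 35.96 FPKM in non-induced cells, higher where the labels say it was induced. Transcripts of the introduced and the endogenous copy share this symbol. Of 14 pro-B markers, 11 were called higher and 0 lower (deposited q under 0.05), against 19.0% and 16.1% of all tested genes. In the authors' deposited table the markers ran up to Cd24a, at 1786 FPKM in induced and 1211 FPKM in non-induced cells. The lowest there was Rag1, at 0.434 FPKM in induced and 0.00348 FPKM in non-induced cells. Of 8 stromal markers, the authors' deposited table listed 7 at 0 in both groups, and the other, Lum, stood at 0 in induced and 0.00390 FPKM in non-induced cells.

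Most transcripts of cholesterol and fatty acid enzymes were lower in induced cells, and none of the set was called higher. A gene is said to be called, or to have fallen or risen, where it was among the tested genes and the deposited q-value, a p-value adjusted over all of those genes, was under 0.05. By that rule 22 of the 34 tested genes fell and 0 rose. Of all 10657 tested genes, 16.1% were called lower, 19.0% higher and 35.1% either way. At q under 0.01 the set had 17 called lower, against 11.1% of all tested genes, and among genes with a mean of at least 5 FPKM it had 21 of 33, against 15.1%. Among genes whose locus no other row shares it had 20 of 29, against 18.0%. For the counts by FPKM minimum and by locus, the p-values were adjusted anew over the genes kept. Whatever the q-value, 32 of the 34 had a log2 change below 0, as did 51.4% of all tested genes. The median log2 change of the set was -0.29 (quartiles -0.42 and -0.18), against -0.01 over all tested genes (quartiles -0.16 and 0.18). Genes of a pathway are not independent of each other, so these counts describe the set and carry no test of their own.

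Most of the falls were small, as they were among all tested genes. Of the 22 that fell, 16 fell by less than 1.5-fold, as did 1311 of the 1721 called lower among all tested genes. In the set 3 fell by more than 2-fold: the stearoyl-CoA desaturases Scd1 and Scd2 and the sterol exporter Abcg1. A fall of at least 2-fold was called for 1.55% of all tested genes. The median size of a called log2 change was 0.39 in the set and 0.39 among all called genes. The calls also depended on the p-value used. When the test statistic was instead read as a normal deviate and its p-values adjusted over all tested genes, 11 genes of the set were called lower in place of 22, against 6.16% of all tested genes. These were Acat2, Mvd, Idi1, Fdps, Lss, Hsd17b7, Dhcr7, Fasn, Scd1, Scd2 and Abcg1. Tested genes without a test statistic kept their deposited p-value.

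**Figure D1:**
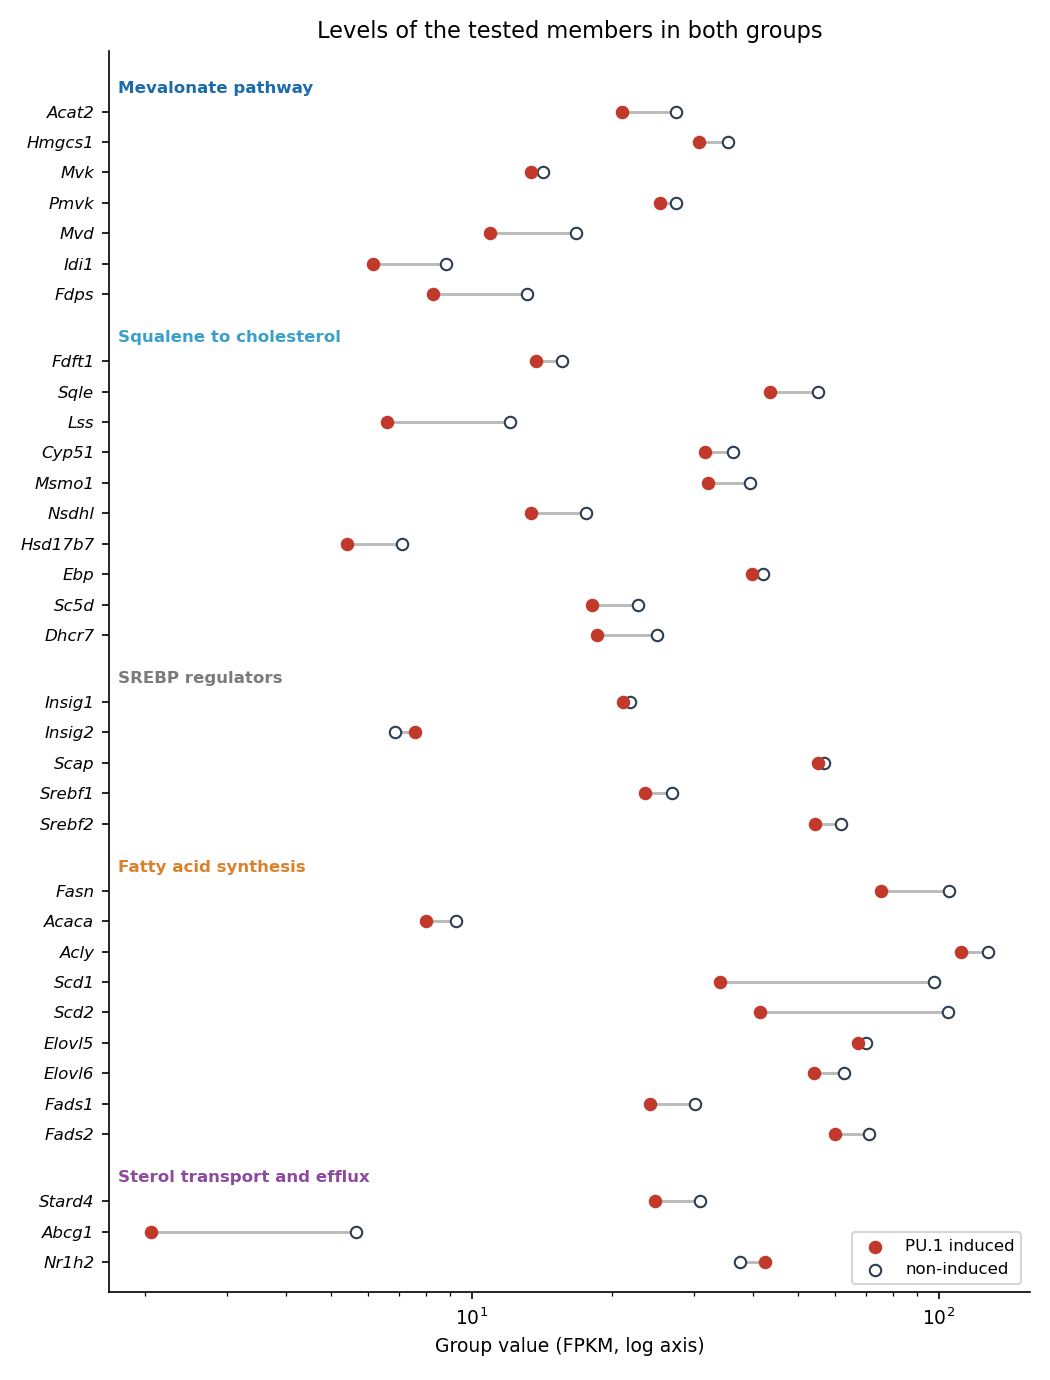
Group values in FPKM on a log axis for the 34 tested genes, by branch; filled points are induced cells, open points non-induced cells, and a grey line joins the 2 values of a gene. The filled point lies left of the open one for 32 genes and right of it for Insig2 and Nr1h2, and the longest lines belong to Scd1, Scd2 and Abcg1.

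In the mevalonate pathway, which leads to farnesyl diphosphate, 5 of 7 genes fell and 0 rose, with a median log2 change of -0.38. The strongest changes came in its last 3 enzymes. In the authors' deposited table Mvd, the decarboxylase that makes isopentenyl diphosphate, stood at 10.9 FPKM in induced and 16.7 FPKM in non-induced cells, for a log2 change of -0.61 (implied standard error 0.15). Idi1, the isomerase that follows, had 6.15 FPKM in induced and 8.80 FPKM in non-induced cells (log2 -0.52 in the authors' deposited table, implied standard error 0.16). Fdps, the farnesyl diphosphate synthase, had 8.25 FPKM in induced and 13.1 FPKM in non-induced cells (log2 -0.67 in the authors' deposited table, implied standard error 0.18). Its exons overlap the annotated gene Gm43738 on the same strand, and the part of that gene in the value of Fdps was not tested. The implied standard error is the deposited log2 change divided by the deposited test statistic, a relation the table does not state. All 3 genes had the smallest q-value of the table, 0.000287, as did 13 genes of the set in all.

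The first enzymes of the pathway were changed less, a difference that was not tested. Acat2, the cytosolic thiolase that joins acetyl-CoA units, fell to 20.996 FPKM in induced cells, against 27.4 FPKM in non-induced cells (log2 -0.38 in the authors' deposited table). Hmgcs1, the HMG-CoA synthase, fell to 30.7 FPKM in induced cells, against 35.5 FPKM in non-induced cells (log2 -0.21, q = 0.0348, in the authors' deposited table). The kinases Mvk and Pmvk, which phosphorylate mevalonate in turn, were not called. Mvk stood at 13.4 FPKM in induced and 14.2 FPKM in non-induced cells (q = 0.543 in the authors' deposited table), and Pmvk at 25.3 FPKM in induced and 27.4 FPKM in non-induced cells (q = 0.359 there). The 7 genes listed here for the pathway, which are not all of its enzymes, summed to 116 FPKM in induced and 143 FPKM in non-induced cells.

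From squalene to cholesterol, 8 of 10 tested genes fell and 0 rose, with a median log2 change of -0.33. Lss, the lanosterol synthase that closes the sterol rings, changed most of the 17 tested cholesterol enzymes. In the authors' deposited table it stood at 6.59 FPKM in induced and 12.1 FPKM in non-induced cells, for a log2 change of -0.87 (implied standard error 0.15). It was the only enzyme of this stretch that fell by at least 1.5-fold, a size of fall called for 3.85% of all tested genes. The gene occupies chromosome 10 from 76531588 to 76557138, plus strand (mm10, protein-coding), and the annotated transcript 4930483K19Rik overlaps its exons on the other strand.

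Most of the other enzymes of this stretch fell by similar, smaller amounts. Sqle, the squalene epoxidase, was the most abundant of them, at 43.6 FPKM in induced and 55.2 FPKM in non-induced cells (log2 -0.34 in the authors' deposited table). Dhcr7, which makes cholesterol from its direct precursor, had 18.5 FPKM in induced and 24.9 FPKM in non-induced cells (log2 -0.43 in the authors' deposited table). Nsdhl and Hsd17b7, which act in turn in removing methyl groups from the ring, had nearly the same log2 change, -0.39 each, in the authors' deposited table. Their levels per the authors' deposited table were 13.4 FPKM in induced and 17.6 FPKM in non-induced cells for Nsdhl, and 5.42 FPKM in induced and 7.10 FPKM in non-induced cells for Hsd17b7. Msmo1, the oxidase that works with them, had in the authors' deposited table a log2 change of -0.30 (32.2 FPKM in induced and 39.5 FPKM in non-induced cells), and Sc5d, a sterol desaturase, one of -0.33 (18.2 FPKM in induced and 22.8 FPKM in non-induced cells). The changes of these 6 genes differed from each other by less than the implied standard error of any of them (0.14 to 0.15).

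Cyp51, the lanosterol demethylase, was the called gene nearest the threshold. It stood at 31.6 FPKM in induced and 36.4 FPKM in non-induced cells (log2 -0.20, q = 0.0473, in the authors' deposited table). Ebp, the sterol isomerase, was not called, at 39.8 FPKM in induced and 42.1 FPKM in non-induced cells (log2 -0.08, q = 0.528, in the authors' deposited table). Fdft1, the squalene synthase, was not called either, at 13.7 FPKM in induced and 15.6 FPKM in non-induced cells (log2 -0.18, q = 0.602, in the authors' deposited table). Its implied standard error of 0.43 was the widest of the set. Fdft1 shares a locus and exon sequence on the other strand with the cathepsin gene Ctsb, which rose (log2 0.34 in the authors' deposited table). Use of strand in counting is not given in the sources used here, and the part of Ctsb in the value of Fdft1 was not tested.

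**Figure D2:**
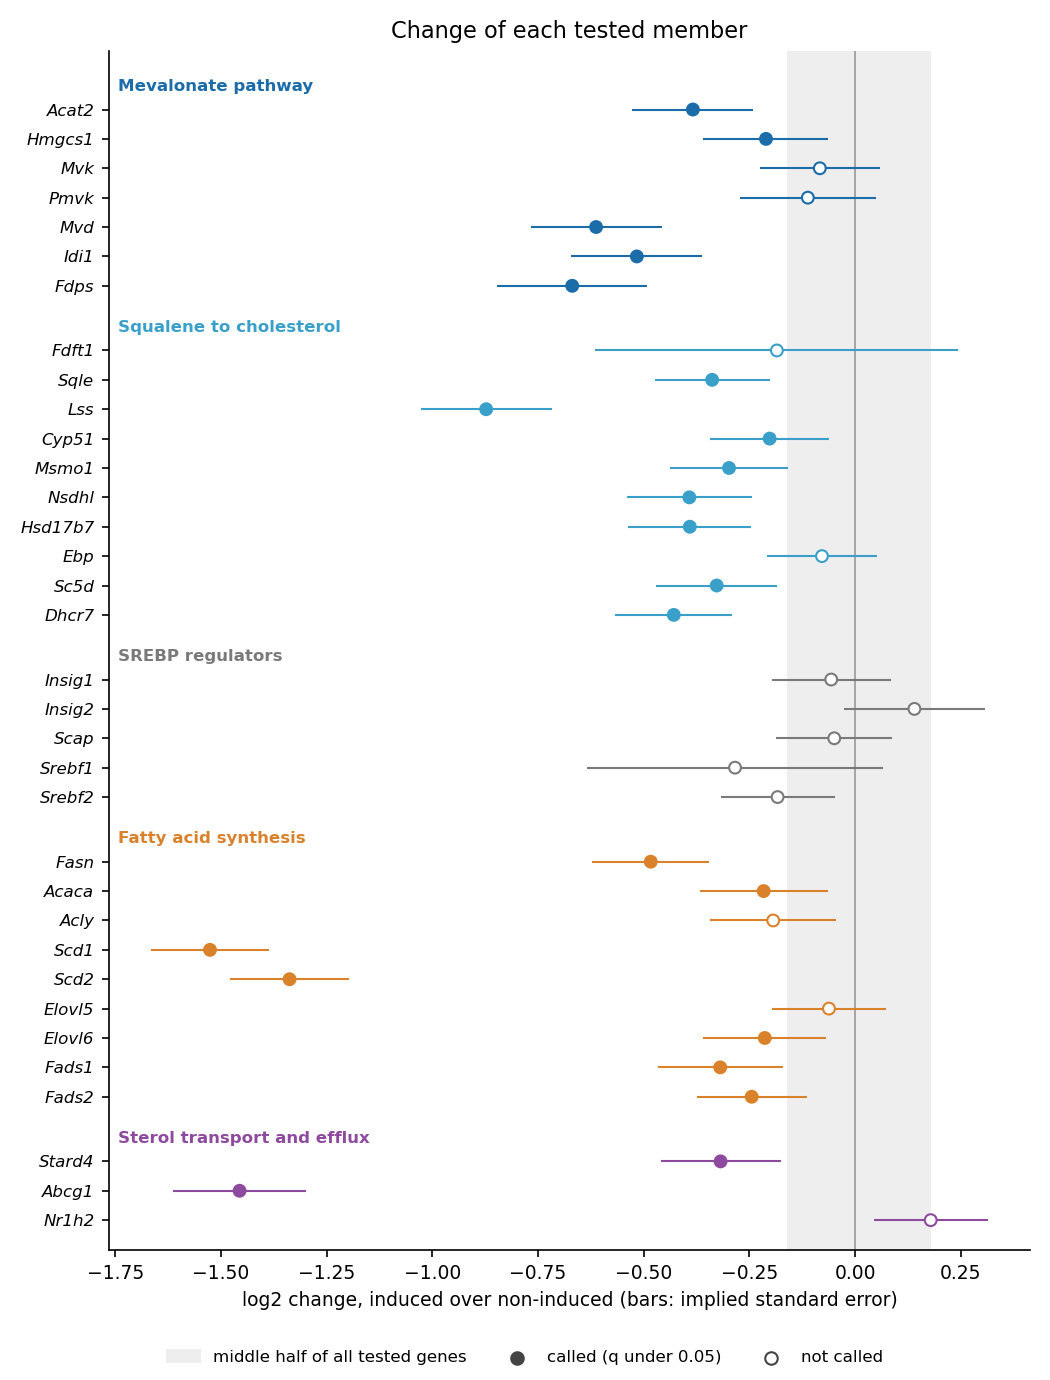
Deposited log2 change, induced over non-induced, of the 34 tested genes by branch; bars are the implied standard error, filled points were called, open points were not, and the grey band runs between the quartiles of all tested genes (-0.16 to 0.18). The points of the cholesterol and fatty acid enzymes lie left of 0, as do those of 4 of the 5 regulators. All 5 regulators are open, as are some of the enzymes.

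The proximal promoters of the set were searched for sites known from work on SREBP genes, since most of its genes moved in the same direction. The search covered regulators and transport genes as well as enzymes. RefSeq windows of 300 bases (build GRCm38.p6, 250 bases before to 50 after each start) were found for 28 of the 36 genes, 36 windows in all. Entries were missing for Abcg1, Fads1, Fdft1, Fdps, Scd1, Scd2, Sqle and Stard4. The windows of 3 genes are shown: Lss, the called gene with the largest fall among those with a window (Scd1, Scd2 and Abcg1 fell more but have none), Cyp51, the called gene with the smallest, and Hmgcs1, which alone held the SREBP site searched. Capitals mark the SREBP site (TCACNCCAC), the NF-Y box (CCAAT or ATTGG) and the Sp1 box (GGGCGG or CCGCCC), on either strand, and no marked sites overlap. Lss lies at chr10:76531355-76531654 (plus strand), Cyp51 at chr5:4104648-4104947 (minus strand) and Hmgcs1 at chr13:119690101-119690400 (plus strand), each written 5′ to 3′ on its own strand.
Lss: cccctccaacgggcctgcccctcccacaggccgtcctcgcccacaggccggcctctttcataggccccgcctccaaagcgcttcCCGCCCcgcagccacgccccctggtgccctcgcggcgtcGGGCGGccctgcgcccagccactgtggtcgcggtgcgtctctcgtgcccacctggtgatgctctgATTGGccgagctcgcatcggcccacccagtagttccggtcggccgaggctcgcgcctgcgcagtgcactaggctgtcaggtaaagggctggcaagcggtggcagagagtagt
Cyp51: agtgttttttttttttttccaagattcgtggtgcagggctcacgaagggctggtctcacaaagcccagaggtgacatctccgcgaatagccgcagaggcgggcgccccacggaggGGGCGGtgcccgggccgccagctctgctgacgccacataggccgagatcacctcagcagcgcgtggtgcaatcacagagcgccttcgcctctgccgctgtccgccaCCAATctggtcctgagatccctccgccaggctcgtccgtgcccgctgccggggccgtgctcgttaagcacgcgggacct
Hmgcs1: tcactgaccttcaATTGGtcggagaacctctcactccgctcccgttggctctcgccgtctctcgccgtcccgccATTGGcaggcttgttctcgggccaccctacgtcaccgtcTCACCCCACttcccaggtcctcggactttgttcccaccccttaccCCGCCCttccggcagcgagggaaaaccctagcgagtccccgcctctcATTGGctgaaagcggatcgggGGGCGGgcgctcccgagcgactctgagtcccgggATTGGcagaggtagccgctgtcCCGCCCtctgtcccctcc

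The Hmgcs1 window holds the SREBP site as TCACCCCAC at bases 114 to 122, counted from its 5′ end, together with 4 NF-Y boxes and 3 Sp1 boxes. The Lss window holds 1 NF-Y box and 2 Sp1 boxes, and the Cyp51 window 1 of each. Over the set, the SREBP site was in 1 of 36 windows (2.78%), against 1.24% of all 32851 windows of the reference and 1.21% of the windows of tested genes. The NF-Y box was in 22 of 36 (61.1%), against 37.4% of all windows and 38.6% of the windows of tested genes. The Sp1 box was in 26 of 36 (72.2%), against 35.7% of all windows and 62.7% of those of tested genes. The E-box CACGTG was in 8 (22.2%), against 7.15% of all windows and 10.3% of those of tested genes. Of ETS type sites, GAGGAAGT, close to what PU.1 is known to bind, was in 4 windows (11.1%, of Acat2, Elovl6 and Scap), against 3.20% of all windows and 3.24% of those of tested genes. The other, CCGGAAGT, was in 2 (5.56%, of Insig2 and Nr1h2), more than the 3.89% of all windows but less than the 8.94% of those of tested genes. These shares count windows, so a gene with several windows weighs more than a gene with 1. By gene, the NF-Y box was in 21, the Sp1 box in 22 and the E-box in 7 of the 28 genes. A match in a window is a run of letters and not evidence of binding, and windows without a match can hold variants of a site.

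The regulators of the SREBP system were not called in either direction: 0 of 5 fell and 0 rose, where 16.1% of all tested genes were called lower and 19.0% higher. With only 5 genes, these counts do not set the regulators apart from all tested genes. Their median log2 change was -0.06. Srebf2, which encodes the main activator of cholesterol genes, stood at 54.4 FPKM in induced and 61.7 FPKM in non-induced cells (log2 -0.18, q = 0.0777, in the authors' deposited table). Srebf1, whose product acts more on fatty acid genes, stood in the authors' deposited table at 23.6 FPKM in induced and 26.8 FPKM in non-induced cells. Its deposited log2 change of -0.28 differed from the ratio of these values, -0.19, and its q was 0.0890 in the authors' deposited table. Srebf1 overlaps Rai1 on the other strand and shares a locus with it, and its implied standard error was 0.35.

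Scap, the SREBP escort, was at nearly the same level in both groups, 55.1 FPKM in induced and 57.0 FPKM in non-induced cells (q = 0.704 in the authors' deposited table). Of the INSIG pair, which retain SCAP, Insig1 was the more abundant, at 21.1 FPKM in induced and 21.9 FPKM in non-induced cells (log2 -0.06, q = 0.671, in the authors' deposited table). Insig2 had 7.55 FPKM in induced and 6.85 FPKM in non-induced cells (log2 0.14, q = 0.268, in the authors' deposited table). The implied standard errors of the regulators ran from 0.13 to 0.35, and for all but Srebf2 they were wider than the change itself. The missed threshold does not show that the regulators were unchanged, since Cyp51 was called at a change of about the size of that of Srebf2.

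In fatty acid synthesis 7 of 9 genes fell and 0 rose. The desaturases that put the first double bond into saturated chains changed most. In the authors' deposited table Scd1 stood at 34.0 FPKM in induced and 97.9 FPKM in non-induced cells, for a log2 change of -1.53 (implied standard error 0.14). Scd2 in the authors' deposited table stood at 41.4 FPKM in induced and 104.6 FPKM in non-induced cells, for a log2 change of -1.34 (implied standard error 0.14). Together the pair summed to 75.4 FPKM in induced and 202.5 FPKM in non-induced cells. Scd1 occupies chromosome 19 from 44394455 to 44407879, minus strand, and Scd2 from 44293674 to 44306864, plus strand (mm10, both protein-coding), 87590 bases apart. They are close relatives, and how fragments matching both were shared out is not given in the sources used here. Their relatives Scd3 and Scd4 were listed in the authors' deposited table at no more than 0.0469 FPKM in induced and 0.105 FPKM in non-induced cells and were not tested.

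Without the Scd pair the median log2 change of the other 7 genes was -0.22. Fasn, the fatty acid synthase, fell to 75.2 FPKM in induced cells, against 105.2 FPKM in non-induced cells (log2 -0.48 in the authors' deposited table, implied standard error 0.14). Acaca, the carboxylase that supplies malonyl-CoA, fell to 7.97 FPKM in induced cells, against 9.26 FPKM in non-induced cells (log2 -0.22, q = 0.0287, in the authors' deposited table). Acly makes cytosolic acetyl-CoA from citrate and feeds both routes. It was the most abundant gene of the set, at 111.5 FPKM in induced and 127.6 FPKM in non-induced cells, and it lay just outside the threshold (log2 -0.19, q = 0.0555, in the authors' deposited table).

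The enzymes that desaturate and lengthen long chains had smaller changes than Fasn and the Scd pair, a difference that was not tested. The front-end desaturases Fads1 and Fads2, both on chromosome 19 with 81141 bases between them, fell. Fads1 had 24.1 FPKM in induced and 30.05 FPKM in non-induced cells (log2 -0.32, q = 0.00218), and Fads2 had 60.0 FPKM in induced and 71.1 FPKM in non-induced cells (log2 -0.24, q = 0.0152), in the authors' deposited table. Of the elongases, Elovl6, which acts on saturated and monounsaturated chains, fell to 54.1 FPKM in induced cells, against 62.8 FPKM in non-induced cells (log2 -0.21, q = 0.0291, in the authors' deposited table). Elovl5, which acts on polyunsaturated chains, was not called, at 67.1 FPKM in induced and 70.0 FPKM in non-induced cells (log2 -0.06, q = 0.623, in the authors' deposited table). Whether the changes of Elovl6 and Elovl5 differ from each other was not tested.

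Among the genes of sterol movement, the exporter Abcg1 fell and the sterol carrier Stard4 fell by less. Abcg1 (chromosome 17, 31057675 to 31117988, plus strand) stood at 2.06 FPKM in induced and 5.65 FPKM in non-induced cells, the lowest level of any tested gene of the set (log2 -1.46 in the authors' deposited table, implied standard error 0.16). Stard4, which carries cholesterol between membranes, had 24.8 FPKM in induced and 30.9 FPKM in non-induced cells (log2 -0.32, q = 0.000550, in the authors' deposited table). Nr1h2, which encodes the liver X receptor beta, was not called, at 42.5 FPKM in induced and 37.5 FPKM in non-induced cells (log2 0.18, q = 0.0925, in the authors' deposited table). Abca1, the other main exporter, was listed in the authors' deposited table at 0.00151 FPKM in induced cells, a value of about 2 fragments, and at 0 in non-induced cells, and it was not tested. In these bulk samples fewer cells with a transcript and less of it per cell cannot be told apart.

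**Figure D3:**
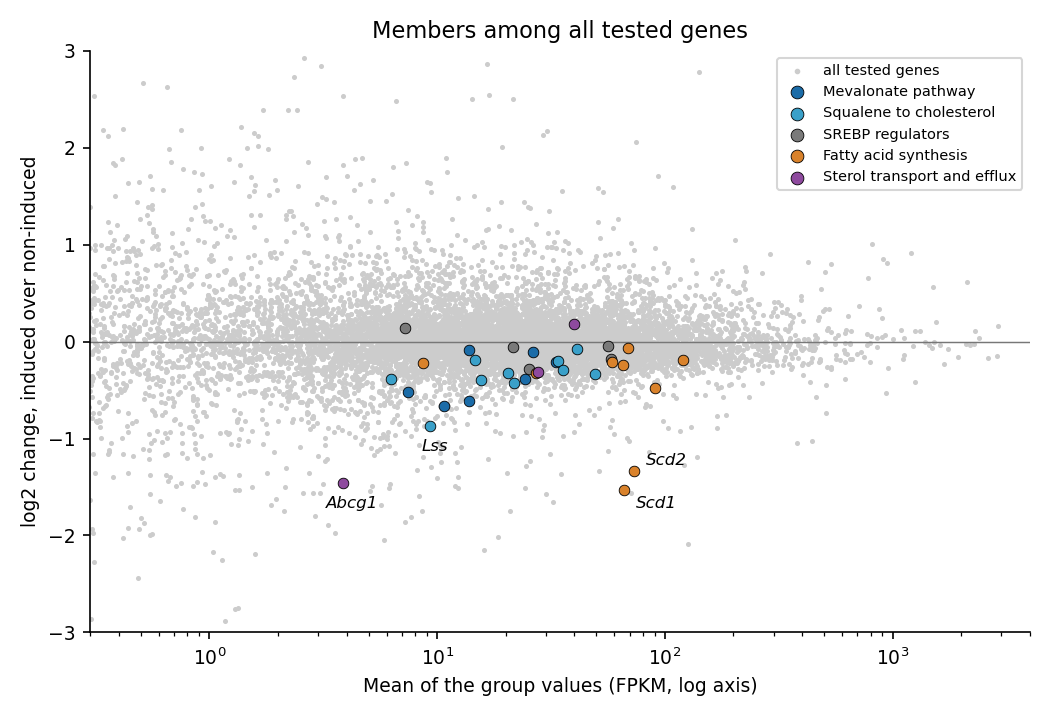
Mean of the group values in FPKM (log axis) against the deposited log2 change for all tested genes (grey) and for the tested genes of the set (coloured by branch); 287 of 10628 genes with a finite change lie outside the axes. Scd1, Scd2 and Abcg1 stand apart from the other genes of the set, Abcg1 at a low level and the Scd pair at high ones.

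Other genes of lipid metabolism were read from 7 lists holding 105 genes, of which 80 had been tested. Of these 19 fell and 19 rose, where 16.1% of all tested genes were called lower and 19.0% higher. The other sterol enzymes had 5 of 9 tested genes lower and 1 higher. Aacs, which activates acetoacetate for the same route (log2 -0.34), and Soat1, which esterifies cholesterol for storage (log2 -0.26), fell in the authors' deposited table. The gene called higher was the sterol hydroxylase Cyp27a1, in the authors' deposited table at 1.33 FPKM in induced cells and listed at 0 in non-induced cells. It may have been tested only through its induced level, so its call is no separate support for a rise. Enzymes that branch off to other isoprenoids had 1 of 9 lower, Pdss2 of ubiquinone synthesis (log2 -0.29 in the authors' deposited table), and 0 higher.

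Other genes of fatty acid synthesis had 7 of 14 tested genes lower and 1 higher, where 16.1% of all tested genes were called lower and 19.0% higher. The dehydratase genes of chain elongation Ptpla (log2 -0.63) and Ptplb (log2 -0.50), the mitochondrial reductase gene Mecr (log2 -0.41) and the citrate carrier gene Slc25a1 fell in the authors' deposited table. Slc25a1, which exports the citrate used by ATP citrate lyase, stood at 80.0 FPKM in induced and 116.5 FPKM in non-induced cells (log2 -0.54 in the authors' deposited table). Genes that activate fatty acids or assemble glycerolipids had 4 of 8 tested genes higher and 0 lower. With only 8 genes, the 0 lower is not far from the share of all tested genes. Acsl4, an acyl-CoA synthetase for polyunsaturated chains, had 38.0 FPKM in induced and 23.3 FPKM in non-induced cells (log2 0.71 in the authors' deposited table). The phosphatase gene Lpin2 (log2 0.44), the acyltransferase gene Gpam (log2 0.43) and Acsl1 (log2 0.26) rose as well in the authors' deposited table.

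Fatty acid oxidation had 3 of 14 tested genes lower and 3 higher, shares near those of all tested genes (16.1% and 19.0%). Cpt2, the inner carnitine palmitoyltransferase, fell (log2 -0.60), as did the dehydrogenase gene Acadvl (log2 -0.33), and Cpt1a, the outer enzyme, rose (log2 0.33), in the authors' deposited table. Ppara, a nuclear receptor of fatty acid breakdown, was called higher, in the authors' deposited table at 0.335 FPKM in induced cells, and was listed at 0 in non-induced cells. Like Cyp27a1, Ppara may have been tested only through its induced level. The sterol sensing genes and transcription cofactors had 6 of 15 tested genes higher and 1 lower. Nfya, a subunit of NF-Y (log2 0.45), and the ubiquitin ligase gene Rnf139 (log2 0.42) rose in the authors' deposited table.

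Genes of sterol transport and uptake outside the set had 4 of 11 tested genes higher and 2 lower, against 19.0% and 16.1% of all tested genes. Lipa, the lysosomal acid lipase that frees cholesterol from its esters, had 30.6 FPKM in induced and 17.9 FPKM in non-induced cells (log2 0.77 in the authors' deposited table). Npc2, which carries that cholesterol inside the lysosome, rose (log2 0.37), and the transporter gene Abca2 (log2 -0.57) and the sterol transfer gene Gramd1b (log2 -0.30) fell in the authors' deposited table. Macrophage markers were read as well. Of 14 such markers 5 had been tested, and 5 rose, where 19.0% of all tested genes were called higher. In the authors' deposited table Cd14 was listed at 0, Mpeg1 at 0.0514 FPKM and Cd68 at 1.85 FPKM in non-induced cells. Some of the 5 may thus have been tested only through their induced level, and their count is no separate support for a rise. The 14 markers summed to 24.9 FPKM in induced and 2.49 FPKM in non-induced cells over the authors' deposited table. The largest share was Lyz2, at 15.2 FPKM in induced and 0.361 FPKM in non-induced cells. Cd163 and Msr1 were listed at 0 in both groups, and 6 of the 14 were under 0.1 FPKM in induced and 11 in non-induced cells. The part of such cells or such a programme in the lipid genes was not tested.

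**Figure D4:**
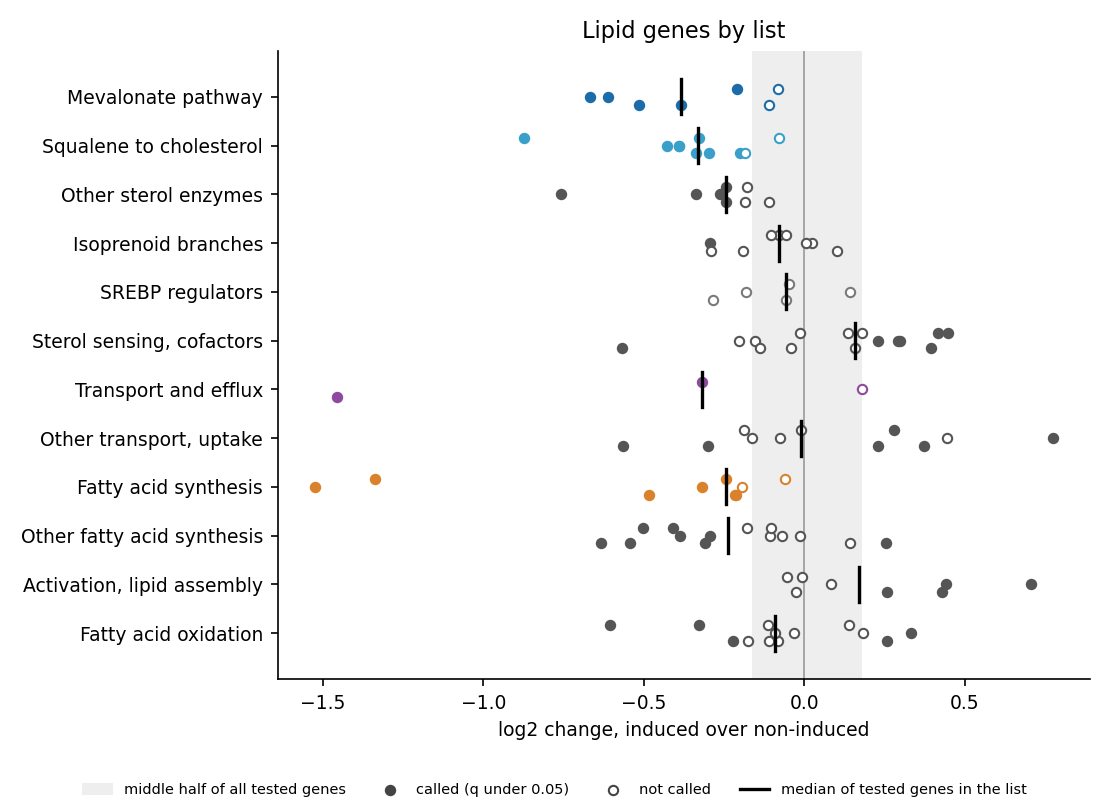
Deposited log2 change of tested genes in the 5 branches (coloured) and the 7 other lists (dark grey); filled points were called, black lines are medians of tested genes with a finite change, and the grey band runs between the quartiles of all tested genes. Medians of the cholesterol, other sterol enzyme and fatty acid synthesis lists run from -0.38 to -0.24, and that of the isoprenoid branches is -0.08. Medians of activation and lipid assembly (0.17) and of sterol sensing and cofactors (0.16) lie right of 0. Single genes of several lists lie on the other side of 0 from the median of their list.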

How the data were processed

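Per the labels' protocols, total RNA of 3 induced and 3 non-induced samples was purified on Qiagen columns, and mRNA libraries that keep strand were sequenced. The submitters' processing notes name Trim Galore 0.2.8.1, TopHat2 2.0.9, Cufflinks, Cuffdiff 2.1.1 and the build mm10. Which gene annotation served is not given in the sources used here. Separate cultures are not mentioned in the labels, and the deposited p-values may therefore reflect only technical spread.

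Per the file headers, the authors' table gives each gene 1 FPKM value per group, the log2 fold change, a score (the test statistic), and the p-value and q-value of the test. They had tested 10657 of 23793 rows. Benjamini-Hochberg adjustment of the p-values gave the q-values to within 5.15e-07, and 1855 rows held the lowest p-value, 5e-05. In 524 rows the fold change was a spreadsheet error mark. Values of 0 can be failed estimates and are given as listed at 0.

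No test over libraries could be made from group values, so calls are the authors' (q under 0.05) and lists are described by counts and medians. All genes of the set were named. Of each other list, up to 4 called genes with the largest change were named, with a gene listed at 0 in one group ranked first. Some genes that this rule names are not reported here, though the counts include them. Ctsb, Scd3 and Scd4 were added, after their values were seen, because they share sequence with genes of the set, and the markers at 0 were named likewise. The genes and lists were chosen with earlier results of these data known. Alternatives changed the p-value, q threshold (0.01), FPKM minimum (1 or 5), fold (1.5), shared loci, pseudocount (0.1 or 1) and scaling. With an FPKM minimum or without shared loci, the p-values were adjusted anew over the genes kept. Adjustment, calling and motif search were tested on simulated data.

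Coordinates are from GENCODE M21 (mm10), and the locus in the file overlapped the annotated gene for all 34 tested genes. Exons of Hmgcs1 (Gm48342), Cyp51 (Akap9) and Elovl6 (Gm35986) overlap other annotated genes on the other strand. These genes and Fdps stay in the count without shared loci, so that count does not leave out such overlaps. Depth was estimated from FPKM times transcript length over genes whose single annotated transcript has 1000 bases or more, where 64.7% of low values in induced and 70.4% in non-induced cells lay within 0.15 of a whole number of fragments, against 30% for evenly spread values. It is therefore approximate, and fragment numbers per gene used the longest annotated transcript. Python 3.11.15, numpy 2.4.6, pandas 2.3.3, scipy 1.17.1 and matplotlib 3.10.9 were used.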

Additional observations from a re-analysis of the deposited data

How the results depend on the processing

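Leaving out single libraries was not possible, since the table holds group values. No paired analysis was possible because the table gives 1 value per group and none per library. With p-values from the test statistic as a normal deviate, genes of the set called lower numbered 11 in place of 22, with 3 in place of 8 from squalene to cholesterol, 3 in place of 7 in fatty acid synthesis and 1 in place of 2 in sterol transport and efflux. With a 1.5-fold minimum they numbered 6 in all, and 2, 1, 2 and 1 in the mevalonate pathway, squalene to cholesterol, fatty acid synthesis and sterol transport and efflux. Among all tested genes, the normal deviate gave 657 lower and 981 higher in place of 1721 and 2023, and the 1.5-fold minimum 410 lower and 676 higher. Of the other 80 pathway genes, the normal deviate called 9 lower and 10 higher in place of 19 and 19, and the 1.5-fold minimum 3 lower and 4 higher. Those 10 include Cyp27a1 and Ppara, which had no test statistic and kept their deposited p-value. With a mean of at least 1 FPKM, 17 of 78 other pathway genes were called higher in place of 19 of 80. Among all tested genes with that mean, 1795 of 9671 were called higher. At q under 0.01 fatty acid synthesis had 4 called lower in place of 7. With a mean of at least 5 FPKM sterol transport and efflux had 1 called lower in place of 2, because Abcg1 lies under that level. Without Scd1, Scd2 and Abcg1, left out after the data were seen, 19 genes were called lower. On the scale of log2(FPKM + 1), Abcg1 had -1.12 in place of -1.46, and no called gene of the set changed sign under any scaling or pseudocount tried. The depth of single libraries is unknown, and the estimate per group does not bound the spread between them.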
